A study of Mus musculus with 4 samples.

Results

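The 8 genes described here are 5 matrix metalloproteinases (Mmp9, Mmp12, Mmp13, Mmp14 and Mmp19) and 3 tissue inhibitors of metalloproteinases (Timp1, Timp2 and Timp3), chosen by symbol from the 32285 genes of the count matrices, where all 8 were found. The cells came from tumours of CT26, a colon carcinoma line of Balb/c mice, grown in Balb/c mice 9 weeks old, and were selected with magnetic beads for CD45, a surface protein of leukocytes. Control tumour-bearing mice gave 2 libraries. The other 2 came from mice treated over 8 days with liproxstatin-1, which blocks ferroptosis, a cell death by oxidized membrane lipids. The labels do not describe a vehicle for the controls. They number the replicates without stating that these are separate animals, so a p-value here reflects how far these 4 libraries vary, be it by animal or by technique. By its title the series is about ferroptosis in neutrophils of tumours, and the comparison asks how leukocytes differ when that form of cell death is inhibited.

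Matrix metalloproteinases are zinc-dependent proteases that cut extracellular matrix proteins and also free or cleave growth factors, cytokines and receptors. Most are secreted as inactive precursors, and Mmp14 is anchored in the cell membrane. The Timp proteins bind the active site of the proteases and block it. Timp2 has a further role, since together with Mmp14 it serves to activate the precursor of the gelatinase Mmp2. In tumours much of the protease supply is known to come from macrophages, neutrophils and fibroblasts, and the balance of proteases and inhibitors is studied for its part in invasion, vessel growth and leukocyte traffic.

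Mmp13 and Mmp12 are neighbours in the metalloproteinase cluster of mouse chromosome 9 and lie on the same strand (GRCm38, GENCODE M21 annotation, chr9:7272514-7283331 and chr9:7344381-7369499), with 61049 bases between them. Both had their highest level in the same cluster of cells, described below. RefSeq start windows (GRCm38.p6, from 250 bases before to 50 after a start) were given for 6 of the 8 genes, in 7 windows, and not for Mmp9 and Mmp19. The AP-1 motif TGANTCA, which reads the same on both strands, was found in the Mmp13 window and in the second of the 2 Mmp12 windows. It was present in 7.81% of all 32851 mouse windows of this length. The 250 bases before these starts are shown because both genes share this motif at nearly the same distance, 35 bases before the Mmp13 start and 44 before the Mmp12 start. The capitals mark the motif, and the sequences are chr9:7272264-7272513 and chr9:7347124-7347373, plus strand. A match of letters is not a test of binding.
Mmp13: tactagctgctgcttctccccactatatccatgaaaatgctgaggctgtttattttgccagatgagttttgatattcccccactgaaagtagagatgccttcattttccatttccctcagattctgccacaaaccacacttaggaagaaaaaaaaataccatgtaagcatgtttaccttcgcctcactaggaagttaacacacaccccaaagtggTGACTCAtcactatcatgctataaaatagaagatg
Mmp12: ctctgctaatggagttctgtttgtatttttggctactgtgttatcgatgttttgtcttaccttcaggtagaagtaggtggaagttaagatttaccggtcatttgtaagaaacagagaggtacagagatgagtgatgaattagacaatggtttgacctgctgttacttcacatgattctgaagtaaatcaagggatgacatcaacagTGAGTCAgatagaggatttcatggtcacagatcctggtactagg

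After filtering, 25730 of 29092 barcodes were kept, from 3753 in control replicate 1 to 8061 in liproxstatin replicate 2. The libraries held between 83129874 and 168597163 UMIs (unique molecular identifiers, 1 per captured transcript), and control replicate 1 had the fewest. In all, 57 barcodes were shared between libraries. Clustering without the 8 genes and without the list genes used below gave 26 clusters, named by marker genes. Ptprc, which encodes CD45, had a UMI in 89.7% of all cells but in 19.9% of a small class of 311 cells with fibroblast markers, called stromal cells here, whose leading genes also included Rhox5 and Tm4sf1. No fibroblast marker was found in more than 65.6% of these cells (lowest 8.04%, median 45.3%). At a finer clustering 200 cells were named fibroblast, and 116 others, with Rhox5 among their leading genes, matched no marker list. How many of those 116 are among the 311 was not counted. All 10 macrophage markers were detected in macrophages and all 10 neutrophil markers in neutrophils. Levels below are CPM, the UMIs of a gene per 1000000 UMIs of that class in that library. Reads start from the 3′ end of transcripts, and levels are compared between cells, not between genes. They are given in the order control replicates 1 and 2, then liproxstatin replicates 1 and 2. A gene is called where its adjusted p was below 0.05 (edgeR quasi-likelihood test, Benjamini-Hochberg over all genes tested in the class), and fold changes are log2 values, liproxstatin over control, ± SE with n = 2 libraries per group.

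Macrophages (8895 cells), 34.6% of the cells, held the most UMIs of 4 of the 8 genes when libraries were pooled: 82.0% for Timp2, 73.1% for Mmp14, 51.8% for Mmp13 and 44.9% for Mmp19. An unnamed cluster of 1535 cells, 5.97% of all, held 58.8% of the Mmp12 and 32.5% of the Mmp13 UMIs. Monocytes, 16% of the cells, held 38.9% of the Mmp19 UMIs. A cluster of 67 osteoclast-like cells, 0.26% of all, held 63.7% of the Mmp9 UMIs. By library their share was 6.81%, 52.5%, 75.3% and 69.4%, and in control replicate 1 the Arg1-led cluster described below (46.0%), macrophages (18.5%), neutrophils (15.1%) and monocytes (10.04%) each held more. The stromal cells, 1.21% of all, held 43.8% of the Timp1 and 58.7% of the Timp3 UMIs, but none of the Timp3 UMIs in liproxstatin replicate 1. Macrophages held more Timp1 than stromal cells in control replicate 1 (49.6% against 11.3%) and in liproxstatin replicate 1 (37.4% against 35.0%).

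**Figure D1:**
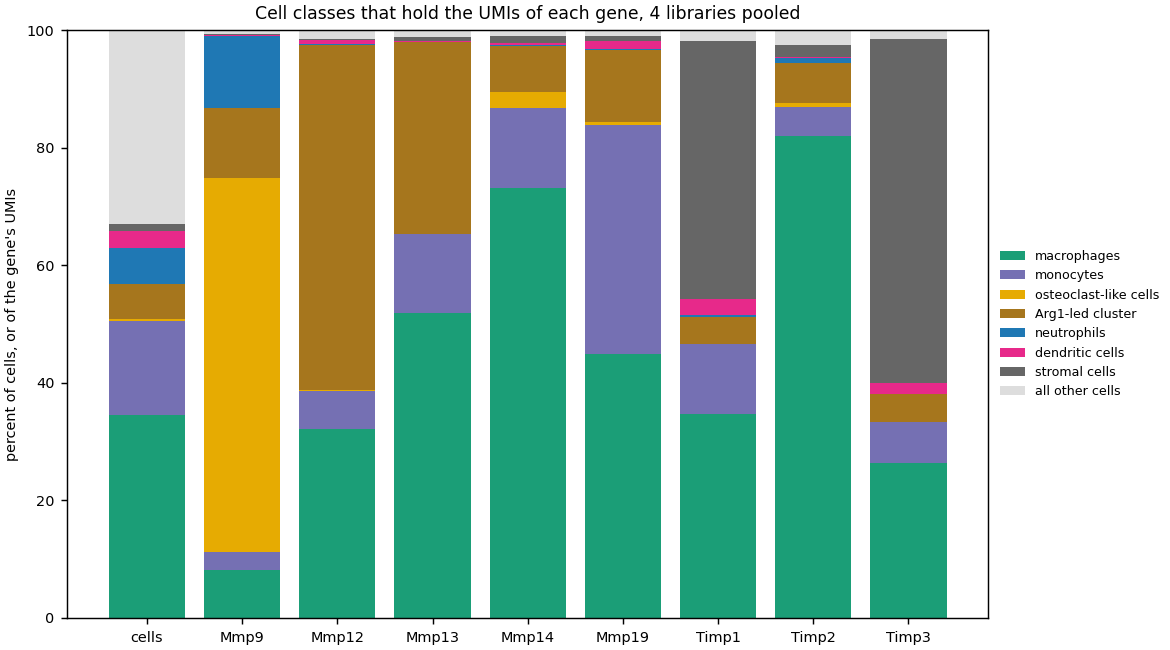
Stacked bars give the percent of all cells (first bar) and of each gene's UMIs (other bars) in each cell class, with the 4 libraries pooled. The osteoclast-like cells are barely visible in the bar of cells and hold 63.7% of the Mmp9 bar, and the stromal cells hold 43.8% of the Timp1 bar.

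Mmp12, the macrophage elastase, was the leading gene of the unnamed cluster, followed by Cxcl3, Ppbp, Rgcc and Arg1. It is called the Arg1-led cluster here, by a leading gene that is not among the 8, although Arg1 stood only in the fifth place. The cluster expressed 9 of 10 macrophage markers and was kept out of the macrophages by the naming rule, since Ppbp, a platelet marker on the lists used, was among its leading genes. Its Mmp12 levels were 2785, 2213, 1618 and 1921 CPM. Both liproxstatin libraries lay below both control libraries. The difference of -0.53 ± 0.14 was not called (adjusted p = 0.228, edgeR), except without control replicate 2 (-0.70, adjusted p = 0.0205). Mmp12 UMIs were found in 71.1% of these cells (exact 95% interval 68.8 to 73.4%), against 6.34% (5.48 to 7.30%) of CD8 T cells, which served as a class without known Mmp12 production. Intervals of shares cover counting error only. Macrophages had 119, 121, 128 and 112 CPM and monocytes 103, 95.3, 87.4 and 116 CPM, with overlapping groups in both. Within these classes the gene was uneven from cell to cell, and 1% of the macrophages (89 cells) held 48.1% of their Mmp12 UMIs.

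Mmp13, an interstitial collagenase, shared with Mmp12 the cluster of its highest level but not the next places. The Arg1-led cluster had 301, 256, 273 and 259 CPM, in overlapping groups, and 46.7% of its cells had a UMI (exact 95% interval 44.2 to 49.2%). A monocyte cluster led by the interferon-induced genes Rsad2, Ifit3 and Ifit2 came next with 117, 106, 173 and 116 CPM. A macrophage cluster led by Pmepa1 and Vcam1 had 129, 61.2, 100.2 and 73.8 CPM. These neighbours in the order overlapped in their ranges, while the Arg1-led cluster lay above both in every library. Neutrophils had only 2.82 to 6.32 CPM. Across 14 cell classes the class means of Mmp12 and Mmp13 (log2 of CPM + 1) had a Pearson correlation of 0.89. These classes included an unnamed cluster led by haemoglobin genes and left out the osteoclast-like cells. The correlation is given as a description, since the classes share the same libraries.

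Mmp9, gelatinase B, had its highest level in the osteoclast-like cells, which also expressed Ctsk, Acp5 and Atp6v0d2, genes of bone-resorbing cells. Their levels were 372, 7171, 5602 and 3334 CPM, from 7, 10, 25 and 25 cells. Control replicate 1 stood far below the other 3 libraries and rests on 7 cells. No test was made, since both control libraries had fewer than 20 of these cells. Of all of them 86.6% had an Mmp9 UMI (exact 95% interval 76.0 to 93.7%).

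Neutrophils store Mmp9 protein in granules. They held 15.1%, 14.5%, 10.99% and 10.8% of all Mmp9 UMIs, against 46.0%, 21.3%, 3.54% and 7.43% in the Arg1-led cluster, so that the order of these classes differed between control and liproxstatin libraries. Their levels were 380.4, 448, 406 and 393 CPM in the 4 libraries. The liproxstatin libraries lay between the control libraries, and the log2 fold change was -0.05 ± 0.21 with a 95% interval of -0.49 to 0.39 (adjusted p = 0.987, edgeR). In neutrophils 47.1% of cells had an Mmp9 UMI (exact 95% interval 44.6 to 49.6%), at median depths of 2744.5 to 3617 UMIs. In NK cells, given for comparison, the share was 1.22% (0.76 to 1.86%) at median depths of 10039.5 to 14479 UMIs.

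In the Arg1-led cluster Mmp9 had 124.0 and 124.5 CPM in the controls and 23.4 and 38.3 CPM in the liproxstatin libraries. Both liproxstatin libraries lay far below both controls, and the difference of -2.06 ± 0.26 was not called (adjusted p = 0.125, edgeR). The same difference was called by DESeq2 (adjusted p = 6.9e-18) and by edgeR with a replicate block (adjusted p = 0.041), without liproxstatin replicate 1 (-1.70, adjusted p = 0.0024) and without liproxstatin replicate 2 (-2.46, adjusted p = 4.5e-05). The gene was concentrated there too, with 57.8% of the UMIs in 15 of the 1535 cells. Monocytes had 7.96, 16.1, 5.39 and 5.25 CPM (-1.13 ± 0.31, adjusted p = 0.318, edgeR), again with both liproxstatin libraries below the controls. Macrophages had 3.77, 3.90, 7.78 and 4.44 CPM, the other way round (0.70 ± 0.26, adjusted p = 0.307, edgeR). Here 80.7% of the UMIs lay in 89 of 8895 cells.

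Mmp14, the membrane-bound metalloproteinase that cuts collagen and activates other proteases, was spread over most phagocytes. Macrophages had 72.7, 74.6, 98.9 and 81.8 CPM. Both liproxstatin libraries were above both controls, by 0.33 ± 0.09, which did not pass the test (adjusted p = 0.106, edgeR). The osteoclast-like cells had 152, 368, 437 and 306 CPM, above the macrophages in each library. In contrast to Mmp9 and Mmp12, 1% of the macrophages held only 6.74% of their Mmp14 UMIs. The exception among the phagocytes was the cluster of nonclassical monocytes, led by Chil3, Ace and Hp, with 4.47 to 10.1 CPM. Its name rests on a marker score of 2.54 for nonclassical monocytes. It also scored 1.86 on the list of the other monocytes, which holds Chil3 and Hp, so it may not be purely nonclassical.

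Mmp19 encodes a secreted protease of basement membrane proteins. Among the 26 clusters it had its highest level in those same nonclassical monocytes. They had 39.6, 69.2, 164 and 109.9 CPM. Both liproxstatin libraries were above both controls, and the difference within this cluster, 1.38 ± 0.31, did not pass the test (adjusted p = 0.249, edgeR). Classical monocytes, led by Vcan, Ly6i and Retnla, had 38.8, 43.6, 53.9 and 47.7 CPM. The 5 macrophage clusters had between 5.73 and 34.9 CPM.

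**Figure D2:**
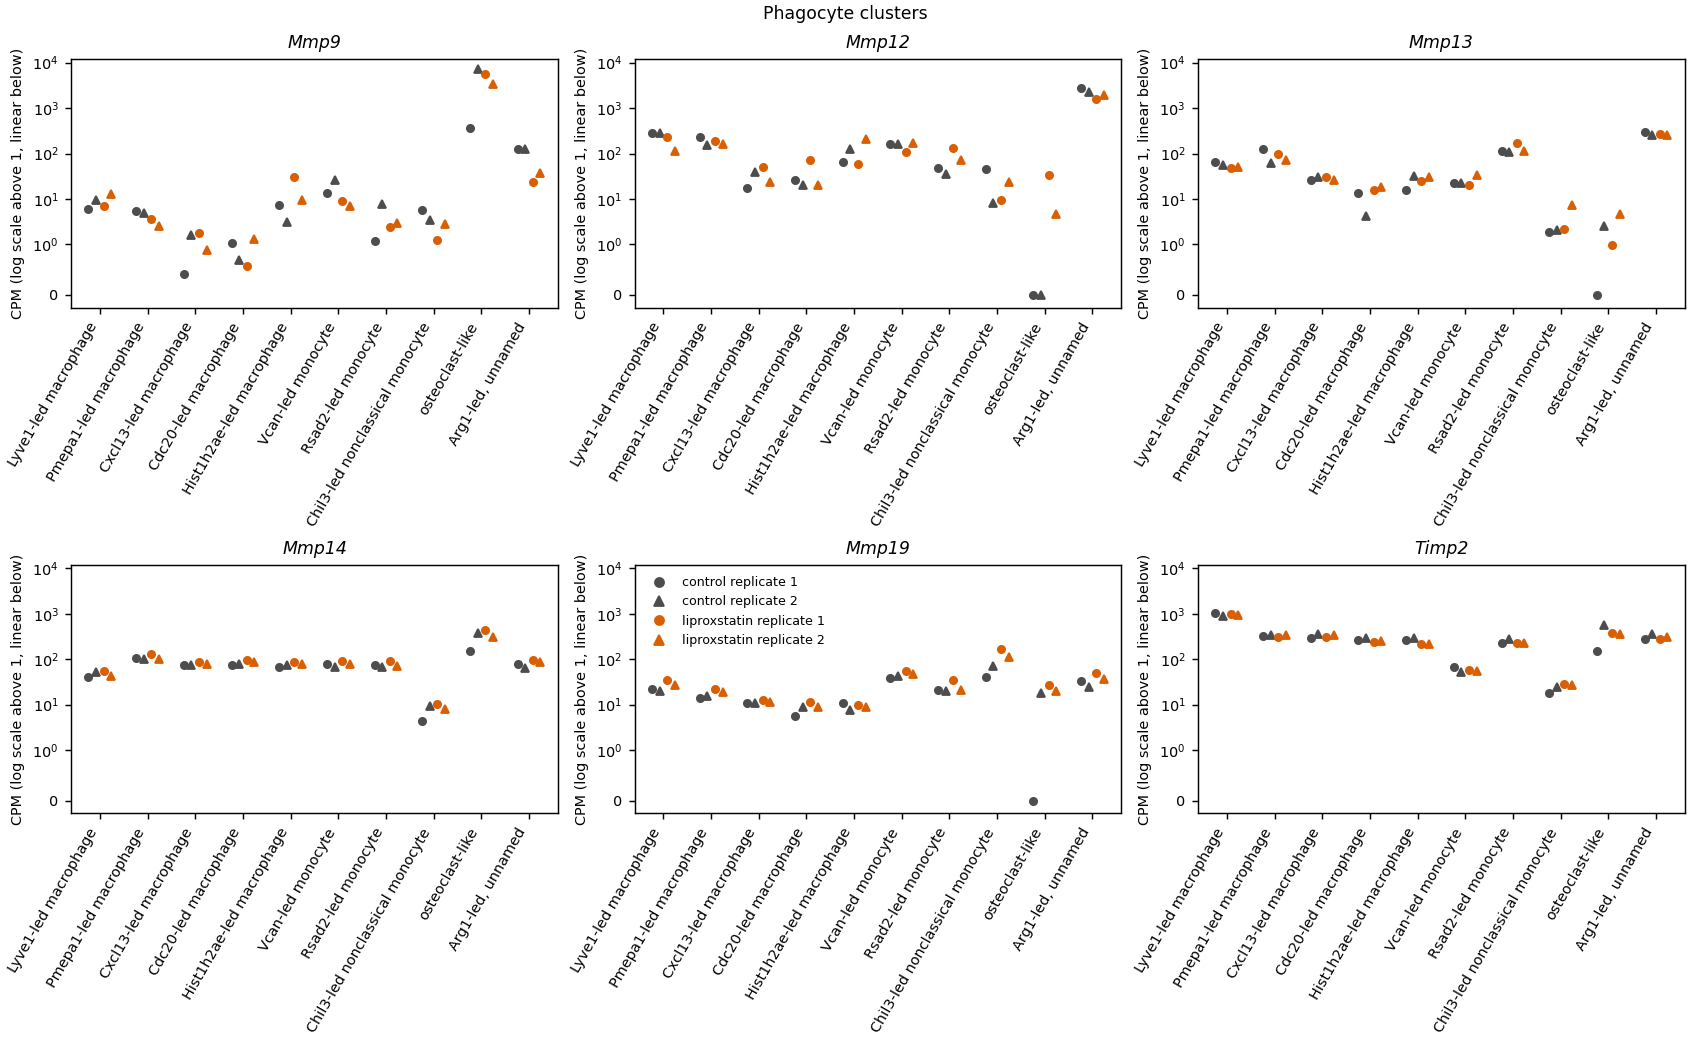
Levels of 6 genes (CPM, log axis above 1 and linear below) in the 9 phagocyte clusters and the unnamed Arg1-led cluster, with 1 point per library (grey control, orange liproxstatin). Mmp9 peaks in the osteoclast-like cells, Mmp12 and Mmp13 in the Arg1-led cluster, Mmp19 in the nonclassical monocytes and Timp2 in the Lyve1-led macrophages.

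Timp1, the inducible inhibitor of the family, had its highest level in the stromal cells, with 128, 936, 709 and 475 CPM. The control libraries were the lowest and the highest. The number of stromal cells was 39, 105, 43 and 124, and the sum of their 7 fibroblast markers was also lowest in control replicate 1 (1133, 3723, 3153 and 1190 CPM). The 10 macrophage markers were highest there (5561, 363, 1556 and 2225 CPM), and the part of this makeup in the Timp1 levels was not tested. The log2 fold change was 0.18 with a 95% interval of -4.33 to 4.68, which allows large changes in either direction. Among the other classes dendritic cells of the controls and monocytes came next. The gene lies on chromosome X (chrX:20870166-20874735, plus strand) inside Syn1, a gene of the other strand. Syn1 itself had 1.60 to 2.14 CPM over all cells.

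Timp2, which is made by many cell types, was highest in macrophages. A macrophage cluster led by Lyve1, Ednrb and Cd163 had 1018, 897, 966 and 923 CPM, in overlapping groups. The other macrophage clusters had 218 to 350 CPM, and the Arg1-led cluster 280, 361, 275 and 309 CPM. Nonclassical monocytes had the least among the phagocytes, all below 30 CPM. It was also found in lymphoid classes, with 138, 160.5, 168 and 153 CPM in regulatory T cells.

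Timp3, which binds to the matrix itself, was nearly absent from these cells, with 213 UMIs in all 25730. Stromal cells held 25, 52, 0 and 48 of them, in 3.54% of the cells (exact 95% interval 1.78 to 6.24%). Only 11 stromal cells had a Timp3 UMI. Of the stromal Timp3 UMIs 80.8% lay in 3 of the 311 cells, and 1 cell alone held 44. No UMI was found in 1561 neutrophils, which allows a share of up to 0.192% of cells with a UMI, in 2870 CD8 T cells (up to 0.105%) or in 1719 NK cells (up to 0.175%). These limits are on cells with a captured UMI at the depths given, not on cells that express the gene. The level over all cells in liproxstatin replicate 1 was 0.15 CPM, against 0.49 to 0.54 in the other 3 libraries, and this library had no Timp3 UMI in its 43 stromal cells. In such a sum over all cells, fewer cells of a type and less RNA per cell cannot be told apart.

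**Figure D3:**
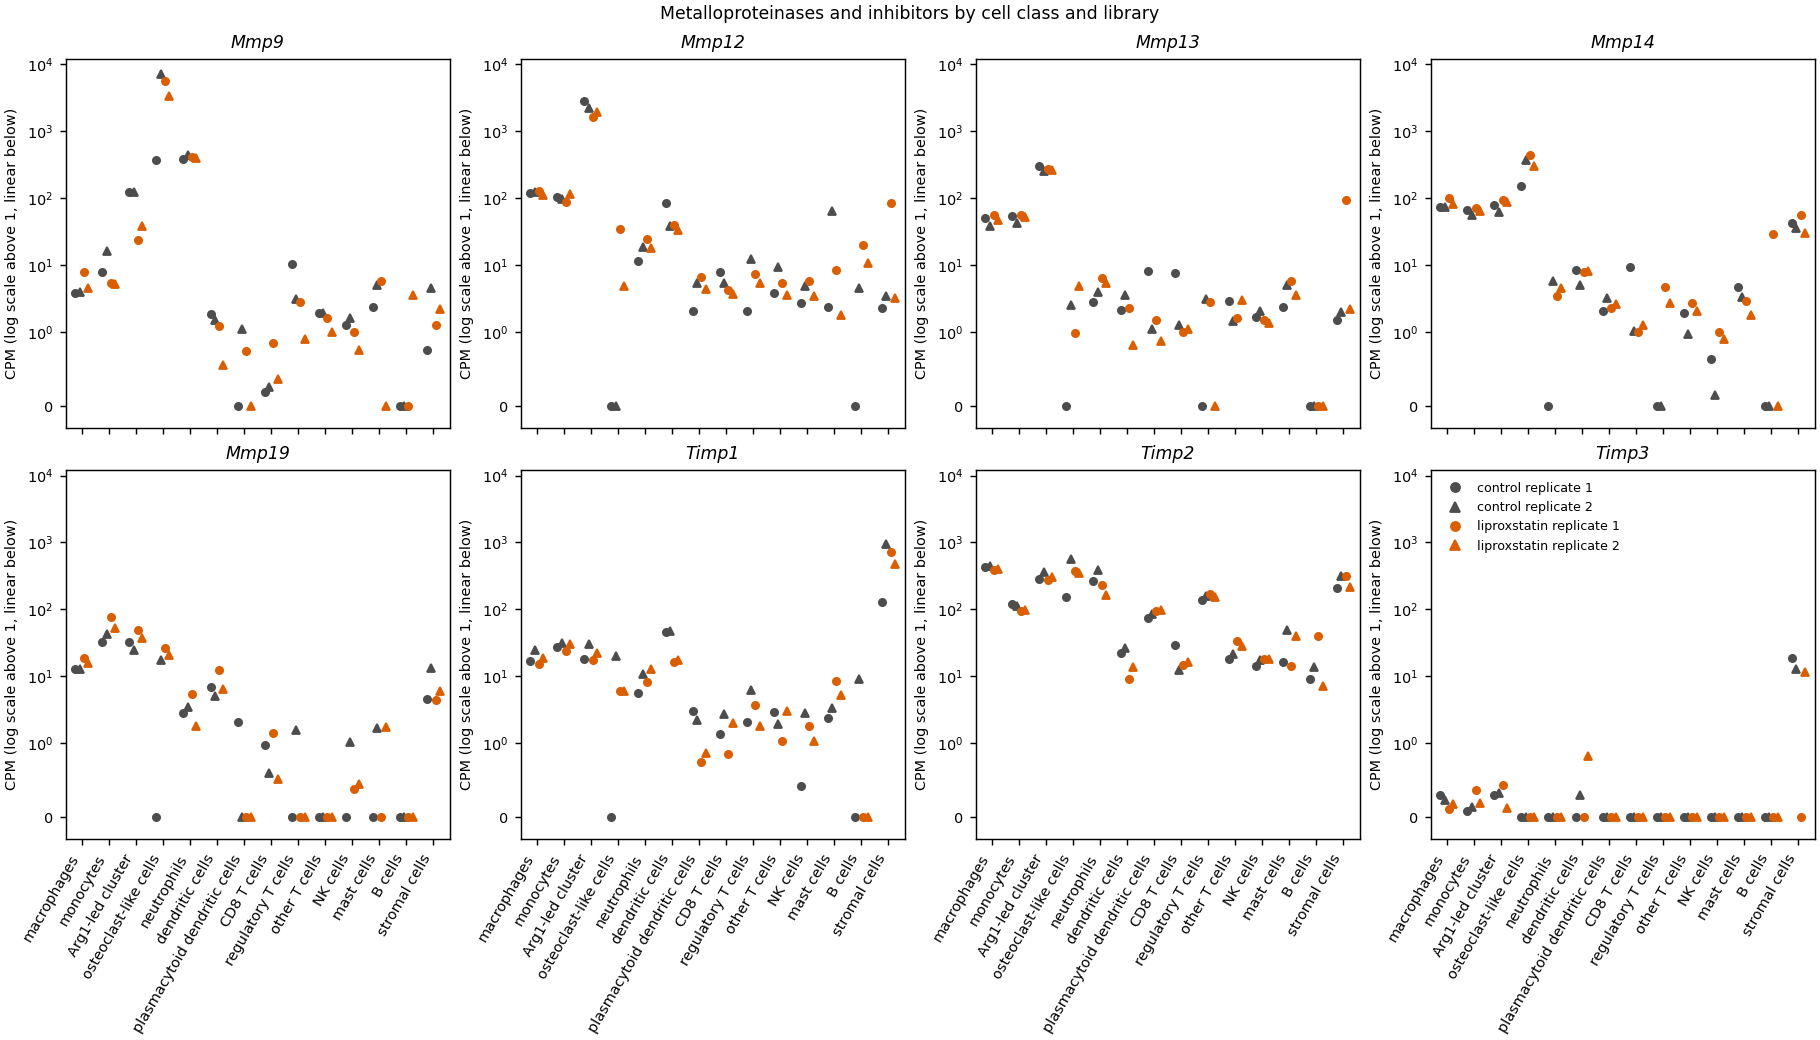
Level of each gene (CPM, log axis above 1 and linear below) in 14 cell classes, with 1 point per library (grey control, orange liproxstatin). Mmp9 is high in osteoclast-like cells and neutrophils, Timp1 and Timp3 in stromal cells, and Timp3 is at 0 in most other classes.

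The classes were compared with each other within libraries, with the library as a block. In these contrasts most genes differ: 71.8% of all genes tested were called between neutrophils and mononuclear phagocytes (macrophages, monocytes and osteoclast-like cells together), 55.7% between dendritic cells and mononuclear phagocytes and 66.7% between macrophages and monocytes, and the counts of members are to be read against these shares. Between neutrophils and mononuclear phagocytes 6 of 7 tested members were called. Mmp9 was higher in neutrophils, by 4.36 ± 0.72 (adjusted p = 0.014, edgeR). Lower in neutrophils were Mmp14 (-3.81 ± 0.25), Mmp13 (-2.72 ± 0.26), Mmp19 (-2.16 ± 0.33), Mmp12 (-2.06 ± 0.17) and Timp1 (-0.58 ± 0.26). Timp2 was not called, at -0.02 with a 95% interval of -0.26 to 0.22. Its CPM, which lack the normalization used in the fit, were lower in neutrophils in each library. They were 267.7, 381.4, 232 and 160.8, against 362.1, 396.5, 324 and 330.2 in mononuclear phagocytes. The median over all 13604 genes of this contrast was -0.821, so Timp1 and Timp2 were less lowered than the median gene.

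Macrophages exceeded monocytes most in Timp2, by 1.84 ± 0.04, and monocytes exceeded macrophages most in Mmp19, in which macrophages were at -1.87 ± 0.12. Timp1 (-0.71 ± 0.07) and Mmp13 (-0.23 ± 0.04) were lower in macrophages and Mmp14 (0.23 ± 0.05) higher, all called. Mmp9 and Mmp12 were not. For Mmp13 the Rsad2-led monocyte cluster held 17.2%, 10.9%, 17.6% and 14.2% of the phagocytes' UMIs. The Vcan-led monocytes held 4.28%, 4.29%, 3.91% and 8.74%. The name of the Rsad2-led cluster was nearly tied, with a marker score of 1.18 as monocyte and 1.14 as macrophage. At a coarser clustering a cluster with the same leading genes was named macrophage. The Mmp13 contrast without this cluster was not tested. Dendritic cells were lower than the mononuclear phagocytes in 6 of 7 members, from -4.72 ± 0.45 for Mmp9 to -1.21 ± 0.30 for Mmp12. Timp1 was the exception (0.64 ± 0.35, adjusted p = 0.218, edgeR).

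Against the 2.08% of 14555 genes called by treatment in mononuclear phagocytes, 1 of the 8 members was called. Mmp19 had 16.8 and 16.8 CPM in the controls and 31.4 and 23.6 CPM in the liproxstatin libraries. Both liproxstatin libraries were above both controls, by 0.75 ± 0.12 (adjusted p = 0.022, edgeR), a 1.69-fold rise. Nonclassical monocytes, where the gene was highest, were 6.54% and 6.55% of the phagocytes in the controls and 10.3% and 8.43% in the liproxstatin libraries, and held 6.65%, 11.5%, 28.8% and 18.5% of the phagocytes' Mmp19 UMIs. With equal numbers of cells drawn from each cluster in each library, the levels were 16.7, 18.5, 27.7 and 20.3 CPM, and the difference of 0.47 ± 0.13 was no longer called (adjusted p = 0.202, edgeR). It was also lost without liproxstatin replicate 1 (0.55, adjusted p = 0.0899).

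Single clusters were compared by value, in the phagocyte clusters with at least 20 cells per library and in the Arg1-led cluster. In 7 of these 9 clusters both liproxstatin libraries lay above both controls for Mmp19. In the other 2 the groups overlapped. The unnamed cluster led by haemoglobin genes, with 32 Mmp19 UMIs from 593, 411, 531 and 140 cells, was not among the 9. It held 0.92%, 0.68%, 0.18% and 0.04% of all Mmp19 UMIs. The clusters come from the same 4 libraries and are not independent. How many of all genes lay so in as many clusters was not counted, so this is a description. In macrophages, where 1.49% of 14134 genes were called, the levels were 12.9, 12.7, 18.7 and 15.6 CPM and the gene rose by 0.46 ± 0.10 (adjusted p = 0.048, edgeR). That call was lost without control replicate 2 (0.42, adjusted p = 0.0724), without liproxstatin replicate 1 (0.35, adjusted p = 0.321) and without liproxstatin replicate 2 (0.56, adjusted p = 0.0672). In monocytes, with 0.344% of genes called, the levels were 32.2, 41.9, 77.4 and 52.0 CPM. That difference, 0.86 ± 0.23, missed the threshold in edgeR (adjusted p = 0.327) but was called by DESeq2 (adjusted p = 0.0022). Mmp19 lies on chr10:128790910-128800824, plus strand, and overlaps Gm47093 and Tmem198b of the other strand.

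Mmp14 was higher in both liproxstatin libraries in 5 of the same 9 clusters and lower in none, again without a count over all genes. Over the mononuclear phagocytes it had 71.5, 73.0, 96.3 and 79.8 CPM, and the difference of 0.33 ± 0.09 (adjusted p = 0.104, edgeR) was called by DESeq2 (adjusted p = 0.047). Mmp9 of the mononuclear phagocytes had 5.71, 33.2, 63.4 and 32.4 CPM. Between 83.2% and 88.7% of its UMIs in 3 libraries came from the osteoclast-like cells, and 19.2% in control replicate 1, the library with 7 of those cells. Timp2 had 362, 396, 324 and 330.2 CPM, both liproxstatin libraries below both controls, with a fold change of -0.17 and a 95% interval of -0.36 to 0.02. Mmp12, Mmp13 and Timp1 overlapped between the groups.

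**Figure D4:**
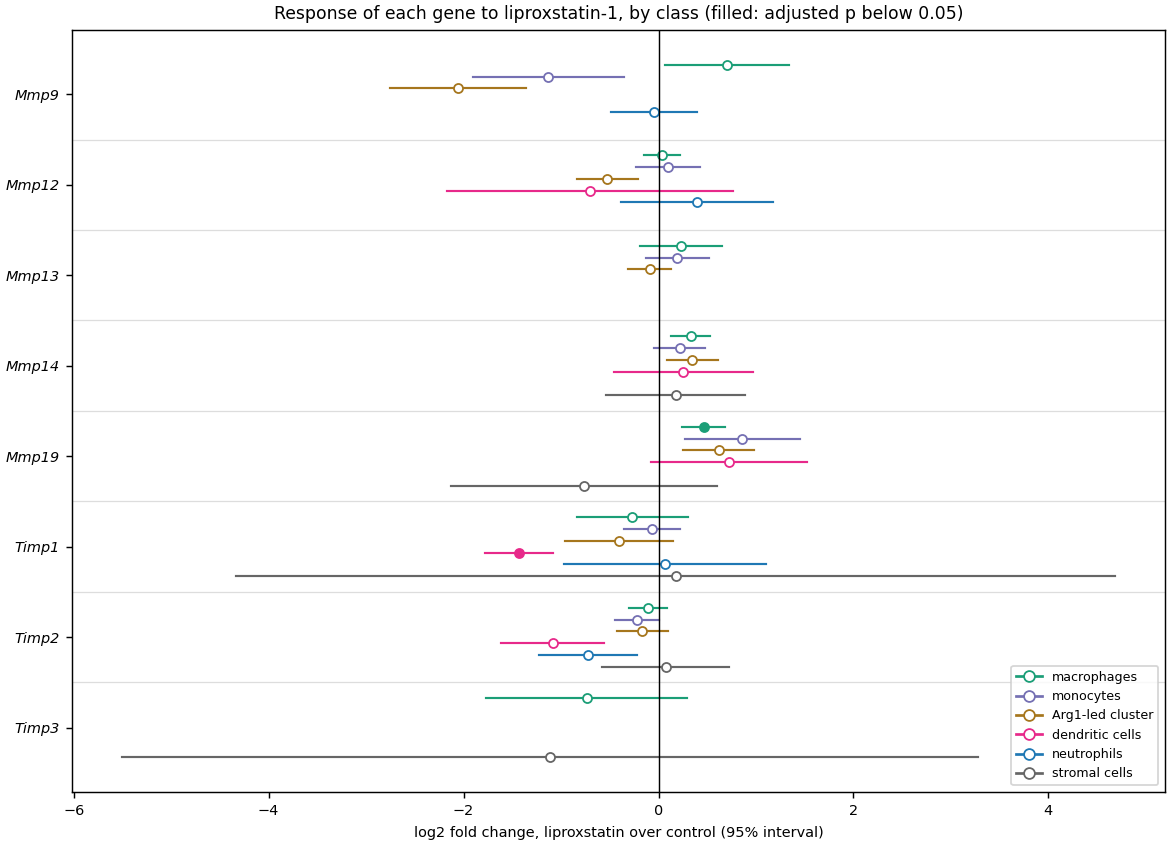
Log2 fold change of each gene, liproxstatin over control, with its 95% interval, in 6 classes where it was tested; filled points passed the test. Mmp19 in macrophages (0.46) and Timp1 in dendritic cells (-1.43) are filled, and the interval of Timp1 in stromal cells runs from -4.33 to 4.68.

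In dendritic cells (758 cells) 5 members had enough UMIs to be tested and 1 was called, with 0.318% of 9742 genes called. Timp1 had 45.8 and 47.2 CPM in the controls and 16.3 and 17.4 CPM in the liproxstatin libraries, from 151, 159, 80 and 63 UMIs. Each liproxstatin library was far below each control, and the gene fell by 1.43 on the log2 scale (SE 0.16, 95% interval -1.78 to -1.08, adjusted p = 0.0037, edgeR). UMIs were found in 15.2% of the cells (exact 95% interval 12.7 to 17.9%), against 2.47% (1.94 to 3.11%) of CD8 T cells. The call was lost without liproxstatin replicate 1 (-1.37, adjusted p = 0.325) and without liproxstatin replicate 2 (-1.49, adjusted p = 0.209).

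The Timp1 of dendritic cells lay in only some of them. At a finer clustering, 306 cells like type 2 conventional dendritic cells had 103, 115, 50.5 and 42.7 CPM. Type 1 cells (372 cells) had at most 4.65 CPM and migratory cells (123 cells) at most 9.80 CPM, in any library. A gate on the markers of each single cell kept 413 cells, 265 of them like type 1, 63 like type 2 and 85 like migratory cells, and here Timp1 had 10.5, 6.98, 8.83 and 5.53 CPM. In the gated cells the groups overlapped (-0.22 ± 0.39, adjusted p = 0.956, edgeR). The 350 clustered cells that the gate left out had 88.3, 106.5, 34.6 and 41.4 CPM. The 63 gated cells like type 2 cells had 61.1, 23.0, 49.5 and 28.1 CPM, with overlapping groups. The call thus holds for dendritic cells defined by clusters and not for those defined by the gate.

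The 10 macrophage markers were lower in the dendritic cells of the liproxstatin libraries (their sum was 1555, 1135, 727 and 647 CPM, and 9 of 10 were lower in both), against 22900 to 24900 CPM in the mononuclear phagocytes. No marker was at 0. In the cluster like type 2 cells their sum ran the other way (655, 1036, 1245 and 1351 CPM), and macrophages themselves had 15.3 to 24.8 CPM of Timp1, less than those cells. The part of these markers in the Timp1 difference was not tested.

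**Figure D5:**
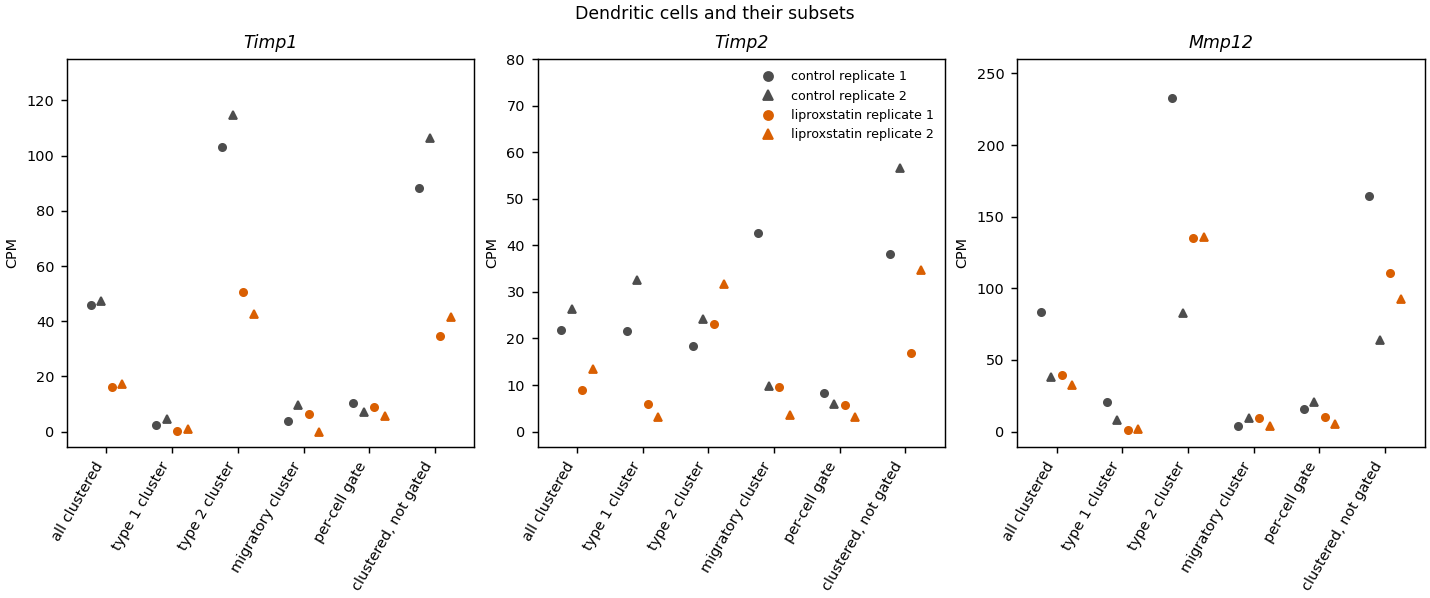
CPM of Timp1, Timp2 and Mmp12 in all clustered dendritic cells, in 3 subsets at a finer clustering, in cells passing a gate on single-cell markers and in clustered cells outside the gate, with 1 point per library. Timp1 is high in the type 2 cluster, where both controls (103 and 115) lie above both liproxstatin libraries (50.5 and 42.7), and low in the gated cells.

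Timp2 in dendritic cells had 21.8 and 26.4 CPM in the controls and 8.95 and 13.5 CPM in the liproxstatin libraries. The groups did not overlap, and the difference of -1.09 ± 0.24 did not pass the test (adjusted p = 0.146, edgeR). It was further from being called without liproxstatin replicate 1 (-0.78, adjusted p = 0.980). It was called with a replicate block (adjusted p = 0.0045), without control replicate 1 (-1.20, adjusted p = 7.0e-04) and without control replicate 2 (-0.97, adjusted p = 0.036). Of the Timp2 UMIs of dendritic cells 43.3% lay in 8 of the 758 cells. At the finer clustering the cells like type 2 cells had 18.4, 24.2, 23.1 and 31.6 CPM of Timp2, with overlapping groups. Each cluster with at least 20 cells in every library was then fitted alone, an addition made after the values had been seen. Only some of these clusters are given here. Their p-values were adjusted over the genes within a cluster and not across clusters. In the type 1 cluster (374 cells, 0.675% of genes called), Timp2 had 21.7, 32.5, 5.77 and 3.04 CPM and fell by 2.5 on the log2 scale (SE 0.36, adjusted p = 0.0028, edgeR). Mmp12 there had 20.5, 8.13, 1.36 and 2.03 CPM and fell by 3.06 (SE 0.57, adjusted p = 0.020, edgeR). By value, the 265 gated cells like type 1 cells had 2.399, 6.023, 3.742 and 3.2 CPM of Timp2, with overlapping groups, from 3, 9, 10 and 6 UMIs. Their Mmp12 was lower in both liproxstatin libraries, from 5, 12, 4 and 4 UMIs. Over all 413 gated dendritic cells Timp2 had 8.315, 5.978, 5.695 and 3.162 CPM, also lower in both liproxstatin libraries.

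In that same type 1 cluster the sum of the 10 macrophage markers was 1838, 1268, 690 and 253 CPM, so it moved with both genes, and both are abundant in macrophages. Their part in the 2 differences was not tested. The Timp2 call was lost without liproxstatin replicate 1 (-3.09, adjusted p = 0.070). The Mmp12 call was lost without control replicate 1 (-2.22, adjusted p = 0.208), without liproxstatin replicate 1 (-2.75, adjusted p = 0.683), without liproxstatin replicate 2 (-3.33, adjusted p = 0.187) and with DESeq2 (adjusted p = 0.115). In the cluster that joins type 2 and migratory cells (384 cells, 0.11% of genes called), Timp1 had 95.2, 91.6, 40.04 and 36.9 CPM and fell by 1.25 (SE 0.18, adjusted p = 0.025, edgeR). That call was lost with a replicate block (adjusted p = 0.068), without liproxstatin replicate 1 (adjusted p = 0.332) and without liproxstatin replicate 2 (adjusted p = 0.0776). Its macrophage markers summed to 1233, 996, 782 and 1117 CPM, with overlapping groups.

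Whether dendritic cells responded differently from mononuclear phagocytes was tested by the interaction of class and treatment, in which 0.325% of 13551 genes were called. Timp1 was called, with a difference of -1.22 ± 0.19 between the 2 fold changes (adjusted p = 9.3e-04, edgeR). The levels of Timp1 in mononuclear phagocytes were 18.9, 25.7, 17.0 and 20.8 CPM, with overlapping groups. Timp2 was called too, at -0.91 ± 0.17 (adjusted p = 0.0088, edgeR), though 8 of the 758 dendritic cells held 43.3% of their Timp2 UMIs. The Timp1 call was lost without liproxstatin replicate 1 (-1.34, adjusted p = 0.053) and without liproxstatin replicate 2 (-1.12, adjusted p = 0.052), and the Timp2 call without liproxstatin replicate 1 (-0.65, adjusted p = 0.693). The other 5 tested members were not called.

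In neutrophils 4 members could be tested and none was called by edgeR or DESeq2, with 0.287% of 5928 genes called by edgeR. One member, Timp2, had an unadjusted p below 0.05, as did 489 of the 5928 genes. It had 268 and 381 CPM in the controls and 232 and 161 CPM in the liproxstatin libraries. Both liproxstatin libraries lay below both controls, and the difference was -0.72 ± 0.24 (adjusted p = 0.334, edgeR). Without control replicate 1, whose 104 neutrophils were the fewest, it was -0.90 (adjusted p = 2.0e-04). The 10 macrophage markers summed to 1141, 1231, 1034 and 1041 CPM in neutrophils. Timp2 UMIs were found in 41.1% of neutrophils (exact 95% interval 38.6 to 43.6%), against 19.02% (17.2 to 21.0%) of the more deeply sequenced NK cells. In the interaction with mononuclear phagocytes, 0.404% of 13604 genes and 0 of 7 members were called by edgeR, and 1 member, Timp2, had an unadjusted p below 0.05 (-0.47, 95% interval -0.94 to -0.01). Of all 13604 genes 754 had an unadjusted p below 0.05 there.

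In the remaining classes no member was called by edgeR. The shares of all genes called there were 0.255% in the Arg1-led cluster, 0.146% in plasmacytoid dendritic cells, 0.265% in CD8 T cells, 0.345% in regulatory T cells, 0.125% in other T cells, 0.0748% in NK cells, 0.56% in mast cells and 0.595% in B cells. In stromal cells edgeR called 0% of 10185 genes, with 138 at an unadjusted p below 0.05 and 1 called by DESeq2. DESeq2 called Mmp14 besides Mmp19 in macrophages, and called Mmp9 in the Arg1-led cluster and Mmp9 and Mmp19 in monocytes. Over all genes it called 398 in macrophages, 30 in the Arg1-led cluster and 91 in monocytes. Unadjusted p-values below 0.05 (edgeR) were found for 4 of 7 tested members in the Arg1-led cluster, beside 1122 of 10976 genes. They were found for 1 of 6 in CD8 T cells (1078 of 11694 genes) and for 1 of 2 in other T cells (681 of 8822 genes). In stromal cells of liproxstatin replicate 1, Mmp12 (85.2 CPM) and Mmp13 (92.1 CPM) stood far above the other 3 libraries (at most 3.45 and 2.18 CPM), and 3 of the 311 stromal cells held 83.1% and 90.4% of these UMIs.

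An unnamed cluster of 1675 cells with a median of 1304 UMIs, led by haemoglobin genes, was also fitted alone after its values had been seen. Here edgeR called 44 of 6595 genes (0.667%), while DESeq2 called 1 gene in this cluster. Mmp12 had 177 and 168 CPM in the controls and 474 and 349 CPM in the liproxstatin libraries, a rise of 1.35 ± 0.14 (adjusted p = 3.8e-19, edgeR), opposite to its values in the Arg1-led cluster. The cluster held 593, 411, 531 and 140 cells. Its 10 macrophage markers summed to between 15550 and 17580 CPM.

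Over all cells together 0.0494% of 16201 genes and none of the 8 members were called by edgeR. Mmp19 came nearest, with 13.99, 14.2, 26.0 and 18.99 CPM (0.71 ± 0.15, adjusted p = 0.175), and DESeq2 called it. Mmp14 also had an unadjusted p below 0.05, as did 2104 of the 16201 genes. Timp1 had 19.3, 48.0, 21.7 and 30.4 CPM, with overlapping groups. The stromal cells held 11.3%, 54.2%, 35.0% and 45.0% of those Timp1 UMIs.

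Among 81 further genes of the system, in 7 lists, 58 were tested in mononuclear phagocytes, where 2.08% of all genes were called, and 2 rose and 1 fell. Their median log2 fold change was 0.03 against -0.002 for all genes. Plaur, the receptor that holds urokinase at the cell surface, rose from 143 and 138 CPM to 249 and 219 CPM (0.78 ± 0.09, adjusted p = 0.0032, edgeR). It also rose in macrophages (0.64) and monocytes (0.78). In other T cells the rise was 2.34, from 10, 17, 98 and 73 UMIs. In mast cells it was 2.90, from 10, 9, 63 and 51 UMIs. The shares of all genes called in these classes were 1.49%, 0.344%, 0.125% and 0.56%. Plaur was not called in the other classes tested, among them neutrophils, which had 1507 to 2649 CPM. Serpine2, an inhibitor of serine proteases, rose by 1.39 from low levels (0.34, 0.30, 0.83 and 0.79 CPM). Mmp27, a little-studied metalloproteinase, fell by 0.89 (2.54, 2.40, 1.22 and 1.35 CPM), the 1 of 7 tested further metalloproteinases to be called, and also fell in macrophages (by 0.89).

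In monocytes Serpine2 rose by 2.60 (0.35, 0.49, 2.10 and 2.90 CPM). In dendritic cells, with 0.318% of all genes called, 2 of 34 were called, both downward: Spp1, a matrix protein cut by metalloproteinases (250.3, 177.5, 102 and 98.1 CPM, -1.05 ± 0.16), and the cathepsin Ctsl (76.7, 69.8, 36.0 and 43.3 CPM, -0.85 ± 0.14). Both stand beside the lower macrophage markers given above for dendritic cells. In neutrophils, with 0.287% of all genes called, 0 of 33 were called. In the Arg1-led cluster Fn1, which encodes fibronectin, rose by 0.54 ± 0.10 (1 of 48, with 0.255% of all genes called). Serpinb6b, an intracellular serpin, rose in CD8 T cells (0.66 ± 0.11, 1 of 35, with 0.265% of all genes called) and Itgb1, an integrin subunit, in B cells (1.56 ± 0.35, 1 of 16, with 0.595% of all genes called).

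For each member the genes with the most similar class means were listed, over 14 classes and 14404 genes. The osteoclast-like cells were not among these 14 classes, while the cluster led by haemoglobin genes was. The likeness of Mmp9 therefore does not cover the cells that held 63.7% of its UMIs. Mmp12 was most like Arg1 (Pearson r = 0.96) and Mmp9 most like Cxcl3 (0.96), both among the leading genes of the Arg1-led cluster. Mmp13 was most like Fam20c (0.95), and Mmp14 most like Lrp1 (0.98), a receptor that takes up proteases and their inhibitors. Mmp19 was most like Pid1 (0.95), Timp1 most like Exoc3l4 (0.97), Timp2 most like Ang (0.91) and Timp3 most like Depp1 (0.998). Dnmt3l was among the first 3 for both Mmp12 and Mmp13, and Colec12 for both Mmp13 and Mmp14. Between protease and inhibitor the likeness was lower, at most 0.73, found for Mmp13 with Timp2 and for Mmp14 with Timp1. These are descriptions over classes of the same libraries.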

How the data were processed

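Gene counts of CD45-selected cells of 4 libraries, 2 per group, were used as deposited: whole UMI counts per gene and barcode, not normalized, per the file headers. Sources for the counting differ: Cell Ranger 6.1.1 in the file headers, Cell Ranger 4 and build mm10 in the submitters' processing notes. Replicate numbers are those of the labels, from which those in the file names differ. Cells with at least 200 genes and under 15% mitochondrial UMIs were kept, the highest Scrublet scores (0.8% per 1000 barcodes) were left out as doublets, and Leiden clustering at resolution 1 (scanpy 1.11.5, 2611 variable genes, 40 components, 20 neighbours) left out the 8 genes and the list genes. Clusters took the name of the marker list they scored highest on, so names mean likeness by markers. The 3 clusters left unnamed held 3221 cells.

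Counts were summed per class and library, for classes with at least 20 cells in each, and fitted per class with edgeR 4.0.16 (filterByExpr, TMM, robust quasi-likelihood F test). Standard errors are the fold change over the square root of F. Class contrasts and interactions had the library as a block. DESeq2 1.42.0 was an alternative, and the procedures were tested on simulated data. The 8 genes and the lists were chosen with earlier results of these data known. Named were the 8 genes in all classes, list genes called in a tested class, and the 3 genes most alike to each member. Exact permutation tests were not used: the smallest two-sided p for 2 libraries against 2 is 0.3333. Whether counting used the strand is not given in the sources used here, so genes that overlap a neighbour (Mmp12 with Mmp1b, Mmp19 with Gm47093 and Tmem198b, Timp1 with Syn1, Timp2 with Cep295nl, Timp3 with Syn3) are uncertain by that neighbour's reads. The count of list genes called in monocytes is not reported here.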

Additional observations from a re-analysis of the deposited data

Results flagged for a closer look

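The fold changes under liproxstatin-1 differed between dendritic cells and mononuclear phagocytes by test for 2 of 7 members, in a fit where 0.325% of all genes were called, and neither call held in every fit with 1 library left out. For Timp1 the difference between the 2 log2 fold changes, tested as an interaction of class and treatment, was -1.22 ± 0.19 (SE, n = 2 libraries per group, adjusted p = 9.3e-04, edgeR). It was lost without liproxstatin replicate 1 (adjusted p = 0.053) and without liproxstatin replicate 2 (adjusted p = 0.052). Dendritic cells defined by clusters were lower in both liproxstatin libraries, while mononuclear phagocytes overlapped between groups, and so did dendritic cells defined by the single-cell marker gate (10.5, 6.98, 8.83 and 5.53 CPM). For Timp2 it was -0.91 ± 0.17 (adjusted p = 0.0088, edgeR), with both classes lower by value in both liproxstatin libraries, and it was lost without liproxstatin replicate 1 (adjusted p = 0.693). Of the Timp2 UMIs of dendritic cells 43.3% lay in 8 of the 758 cells. The summed macrophage markers of the dendritic cells were also lower in the liproxstatin libraries (1555 and 1135 against 727 and 647 CPM), and their part in either difference was not tested.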

How the results depend on the processing

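Of 321 fold changes of single members recomputed under alternatives, 273 kept their direction and side of the threshold, 16 were called only in the alternative, 19 only in the main setting, 13 changed sign without being called in either, and 0 were called with the sign changed. In mononuclear phagocytes the 1 called member became 2 with DESeq2 and 2 without a filter, 0 with equal cells per cluster (an alternative chosen after seeing the data), and 0 to 2 when 1 library was left out. In dendritic cells the 1 called member became 2 without a filter, 2 with the replicate block, 0 under the per-cell marker gate, and 0 to 3 when 1 library was left out. In neutrophils the count ran from 0 to 1 when 1 library was left out. In the other classes the 1 call became 5 with DESeq2, 9 without a filter, 4 with the replicate block, and 1 to 12 when 1 library was left out, 12 without control replicate 1. Over all cells the count of 0 became 1 with DESeq2 and ran from 0 to 2 when 1 library was left out. For the interaction with mononuclear phagocytes the count ran from 0 to 1 for neutrophils and from 0 to 4 for dendritic cells when 1 library was left out. Leaving out a library leaves 1 in its group, which is then assumed to vary like the other group. The cause of these changes was not tested. Same-numbered libraries deviated together with a correlation of 0.13 over genes in mononuclear phagocytes, -0.00675 in dendritic cells and -0.00211 in neutrophils, over 2 pairs, and the labels give no shared origin, so the numbers were not taken as pairing. The low UMI counts of Timp3, and the few cells of the osteoclast-like and stromal classes, limit what can be seen of treatment there.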
